A study of Mus musculus with 8 samples.

Results

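Amino acid transporters are membrane proteins that bring amino acids into the cell, exchange them for others or let them out. The set described here holds 10 of them, chosen by name: Slc7a11, Slc7a5, Slc7a3, Slc7a1, Slc3a2, Slc38a2, Slc38a1, Slc1a4, Slc1a5 and Slc6a9. They were chosen with earlier results of these data known. On the array these genes had 20 probe sets with a single gene symbol, out of 34958 such probe sets. A probe set counted as measured when its 8 values spanned at least 0.01 on the log2 scale, which left 12 probe sets of 8 transporters, out of 10394 probe sets of 7180 genes. All probe sets of Slc7a11 and Slc38a2 were flat.

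RNA of mouse embryonic stem cells was hybridised to 8 Affymetrix arrays, 1 per sample, in 4 genotypes of 2 biological replicates. The double-KO cells (Jmjd1adelta/delta; Jmjd1bdelta/delta) came from a Jmjd1a-deficient line in which a conditional Jmjd1b allele was deleted, and the design text describes an inducible MerCreMer recombinase for this step. The Jmjd1a-KO cells (Jmjd1adelta/delta; Jmjd1b+/+) were a Jmjd1a-deficient line, the Jmjd1b-KO cells (Jmjd1a+/+; Jmjd1bdelta/delta) are labelled as cells of Jmjd1b-deficient mice, and the WT cells (Jmjd1a+/+; Jmjd1b+/+) as cells of WT mice. The design text also describes Jmjd1b-deficient lines made with Cre-expressing adenovirus, and no source used here says which line or clone each array holds. All samples share a medium with serum replacement and the cytokine LIF, and the protocol of all 8 names OHT, the ligand of the recombinase, at 800 nM. Genotype and the line or clone that carries it cannot be told apart.

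Jmjd1a and Jmjd1b, now named Kdm3a and Kdm3b, are demethylases of lysine 9 on histone H3. Kdm3a averaged 4.68 in double-KO and 4.98 in Jmjd1a-KO, against 12.81 in Jmjd1b-KO and 12.78 in WT. Kdm3b averaged 7.36 in double-KO and 7.08 in Jmjd1b-KO, against 9.88 in Jmjd1a-KO and 9.93 in WT. Both genes were low in the groups that lack them. The SD of the difference between replicates over 11472 measured probe sets was 0.30 in double-KO and 0.35 in Jmjd1a-KO, against 0.12 in Jmjd1b-KO and 0.16 in WT.

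Growing stem cells depend on imported amino acids for protein synthesis and for one-carbon and antioxidant metabolism. When amino acids run short, the kinase GCN2 slows translation and the transcription factor ATF4 is made, and many transporter genes are known ATF4 targets. Slc3a2 encodes the heavy chain 4F2hc, which carries light chains such as Slc7a5 (LAT1, an exchanger of large neutral amino acids) and Slc7a11 (xCT, which imports cystine for glutamate). Slc7a1 and Slc7a3 encode the cationic amino acid transporters CAT1 and CAT3, which import arginine and lysine.

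Slc7a5, Slc7a3, Slc7a1, Slc3a2 and Slc38a1 were lower in cells without both demethylases. In double-KO against WT, 5 of the 8 measured transporters fell, 0 rose and 3 did not pass the test, by limma with an adjusted p under 0.05 for the brightest measured probe set of each gene. Over all 11472 measured probe sets, 46.6% passed in this comparison, 19.6% lower and 27% higher. The median change of the 8 transporters was -0.75, against 0.02 for all measured probe sets. A probe set that was flat could not be counted, so these numbers describe the transporters with measured differences and not the family. Because the members were chosen with earlier results known, the counts here and below are no independent evidence of a direction. In RNA from a whole culture, fewer cells that express a gene and less RNA per cell cannot be told apart.

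The heavy chain and its neutral partner went the same way. Slc3a2 (chr19:8706882-8723369, GRCm38.p6) had 10.77 and 11.07 in double-KO, 11.65 and 11.52 in Jmjd1a-KO, 12.01 and 12.06 in Jmjd1b-KO, and 11.67 and 11.72 in WT. Slc7a5 (chr8:121881146-121907686) had 10.03 and 10.43 in double-KO, 10.83 and 10.89 in Jmjd1a-KO, 11.44 and 11.57 in Jmjd1b-KO, and 10.96 and 10.97 in WT. In both genes the double-KO arrays were the lowest and the Jmjd1b-KO arrays the highest, and no group overlapped another. Slc3a2 fell by 0.77 ± 0.11 on the log2 scale (SE, limma, adjusted p = 0.00307) and Slc7a5 fell by 0.73 ± 0.13 (adjusted p = 0.00724) in double-KO against WT. The 8 values of these genes had a Pearson correlation of 0.98, given as a description over 8 arrays that share their genotype groups.

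Slc7a1, on chr5:148327410-148399904, had the largest fall of the 8 measured transporters in double-KO. Its brighter probe set had 6.60 and 6.87 in double-KO, 8.20 and 9.02 in Jmjd1a-KO, 9.91 and 10.16 in Jmjd1b-KO, and 10.31 and 10.23 in WT. The groups formed a ladder without overlap, with WT at the top and double-KO at the bottom. Slc7a1 fell by 3.54 ± 0.27 in double-KO against WT (limma, adjusted p = 0.000476), an 11.6-fold lower signal. A second probe set of Slc7a1 gave -3.45 ± 0.26 (limma, adjusted p = 0.000495). The double-KO values lay on either side of their arrays' median over all probe sets (6.81), and signal over background was not analysed here. A further Slc7a1 probe set was flat at 6.46.

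Slc7a3, the other cationic transporter, lies on chrX:101079146-101090452. It had 9.18 and 10.25 in double-KO, 11.22 and 11.32 in Jmjd1a-KO, 11.57 and 11.74 in Jmjd1b-KO, and 11.16 and 11.04 in WT. Both double-KO arrays were below all 6 others, and they lay further apart from each other than any other replicate pair of this gene. The fall in double-KO against WT was -1.39 ± 0.32 (limma, adjusted p = 0.0164). Without double-KO replicate 1 the Slc7a3 change was -0.85, and the call was lost without either WT replicate.

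**Figure D1:**
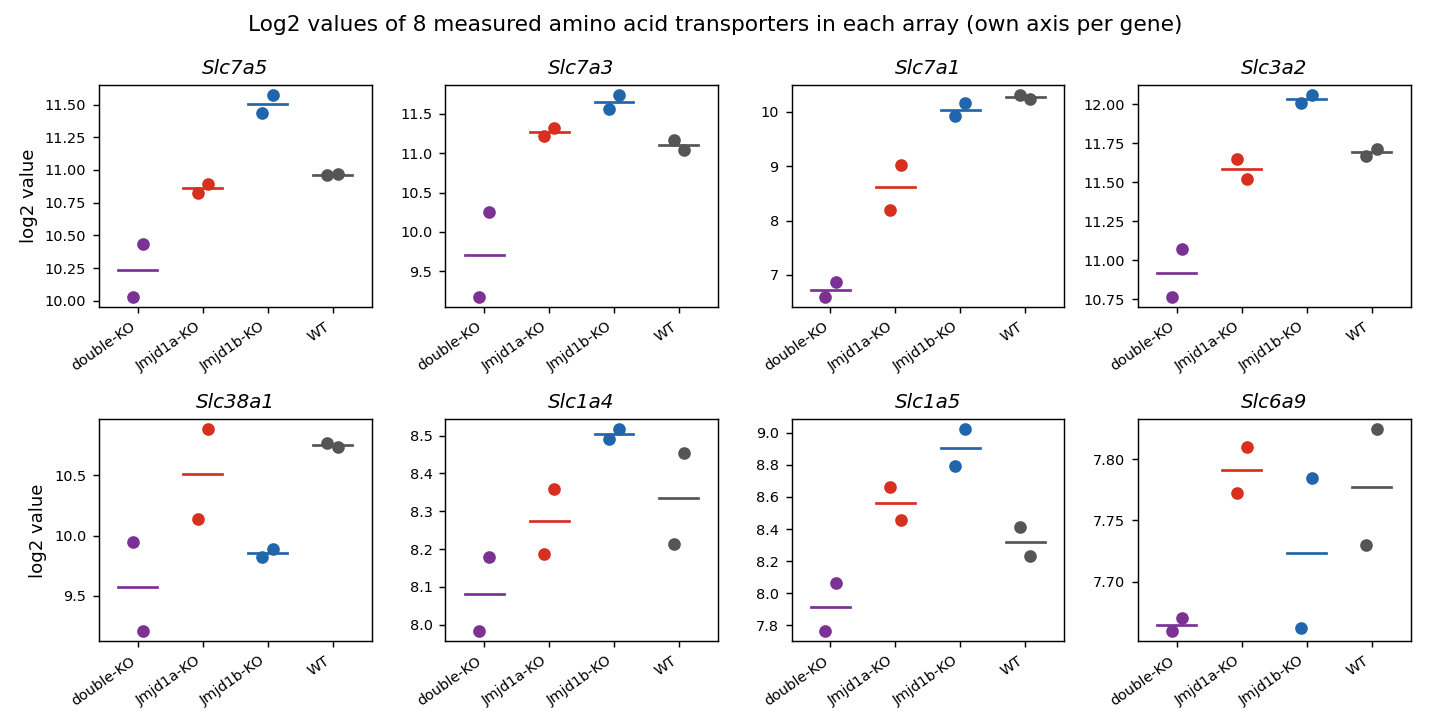
Log2 value (vertical axis, own scale per gene) of the brightest measured probe set of 8 transporters in each array; points are arrays, bars are means of 2 arrays, and groups run double-KO, Jmjd1a-KO, Jmjd1b-KO, WT. Slc7a1 stands at 6.60 and 6.87 in double-KO, against 10.31 and 10.23 in WT, and the double-KO arrays are the lowest of all 8 in the panels of Slc7a5, Slc7a3, Slc7a1, Slc3a2, Slc1a4 and Slc1a5.

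The neutral amino acid exchangers Slc1a5 and Slc1a4 moved less. Slc1a5, the glutamine transporter ASCT2, had 7.76 and 8.07 in double-KO, 8.66 and 8.45 in Jmjd1a-KO, 8.79 and 9.02 in Jmjd1b-KO, and 8.41 and 8.23 in WT. The double-KO arrays were the lowest again, yet the difference from WT of -0.41 ± 0.15 missed the threshold (limma, adjusted p = 0.0634). Its dimmer probe set had 6.77 and 6.78 in double-KO, against 7.18 and 7.03 in WT, and did pass (-0.33 ± 0.10, limma, adjusted p = 0.0376). Slc1a4, the related transporter ASCT1 of alanine, serine and cysteine, had 7.98 and 8.18 in double-KO, 8.19 and 8.36 in Jmjd1a-KO, 8.49 and 8.52 in Jmjd1b-KO, and 8.21 and 8.45 in WT. Its groups lay close together, and the difference of -0.25 ± 0.11 between double-KO and WT did not pass (limma, adjusted p = 0.118), while a second Slc1a4 probe set gave -0.54 ± 0.14 (limma, adjusted p = 0.0231).

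Slc38a1 and Slc6a9, both sodium-coupled carriers, differed from each other. Slc38a1, which encodes the glutamine importer SNAT1, had 9.95 and 9.21 in double-KO, 10.14 and 10.88 in Jmjd1a-KO, 9.82 and 9.89 in Jmjd1b-KO, and 10.77 and 10.74 in WT. The WT and Jmjd1b-KO replicates were tight, while those of both Jmjd1a-deficient groups were wide apart and the double-KO and Jmjd1b-KO arrays overlapped. Slc38a1 fell by 1.17 ± 0.31 in double-KO against WT (limma, adjusted p = 0.0253), and its second probe set gave -0.89 ± 0.09 (limma, adjusted p = 0.00105). The call of the brighter one was lost without double-KO replicate 2, without either Jmjd1b-KO array and without either WT array. The brighter Slc38a1 probe set carries the suffix (_s_at) that Affymetrix gives to probes shared by several transcripts. Slc6a9, the glycine transporter GlyT1, had 7.66 and 7.67 in double-KO, 7.77 and 7.81 in Jmjd1a-KO, 7.66 and 7.78 in Jmjd1b-KO, and 7.73 and 7.82 in WT. The double-KO and WT arrays of Slc6a9 did not overlap, but the difference of -0.11 ± 0.07 did not pass (limma, adjusted p = 0.212, 95% interval from -0.27 to 0.05).

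**Figure D2:**
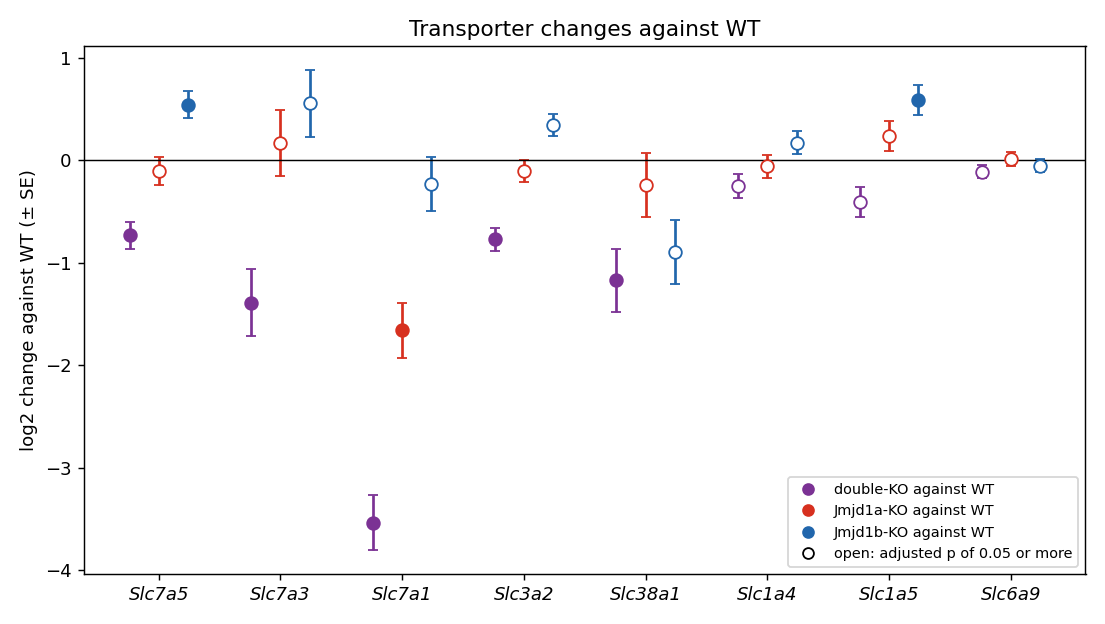
Log2 change against WT (vertical axis, ± SE of the limma fit) of the 8 measured transporters in double-KO, Jmjd1a-KO and Jmjd1b-KO, each from 2 arrays against the same 2 WT arrays; open symbols had an adjusted p of 0.05 or more. The double-KO change of Slc7a1 is -3.54, and the values above 0 that passed are those of Slc7a5 (0.54) and Slc1a5 (0.58) in Jmjd1b-KO.

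The single losses had different transporters past the threshold, and in each the share that passed was near that of all measured probe sets. In their brightest probe sets, Slc7a1, Slc7a3, Slc38a1 and Slc1a5 changed with the same sign in both losses, and the others with opposite signs. In Jmjd1a-KO against WT, 1 of the 8 passed the test, Slc7a1, where 17.9% of all measured probe sets passed, 7.88% lower and 10.1% higher. Slc7a1 fell by 1.66 ± 0.27 (limma, adjusted p = 0.0155), with -1.77 ± 0.26 in its second probe set. The dimmer Slc38a1 probe set also fell (-0.35 ± 0.09, limma, adjusted p = 0.0459), while the brighter one gave -0.24 ± 0.31. The brightest probe sets of the remaining transporters changed by -0.11 to 0.24 and did not pass. In Jmjd1b-KO against WT, 2 of the 8 rose and 0 fell, where 23.9% of all measured probe sets passed, 12.3% higher and 11.6% lower. Slc7a5 rose by 0.54 ± 0.13 (limma, adjusted p = 0.0368) and Slc1a5 rose by 0.58 ± 0.15 (adjusted p = 0.0376). The second Slc1a5 probe set did not follow (-0.12 ± 0.10). Slc3a2 had 0.34 ± 0.11 and Slc38a1 had -0.90 ± 0.31, and neither passed (limma, adjusted p = 0.0698 and 0.0841). The 3 comparisons against WT share the WT arrays, so their changes are not independent of each other.

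The knockouts were also set against each other. In double-KO against Jmjd1a-KO, 5 transporters fell and 0 rose, where 29% of all measured probe sets passed, 11.9% lower and 17% higher. They were Slc7a1 (-1.87 ± 0.27), Slc7a3 (-1.56 ± 0.32), Slc3a2 (-0.66 ± 0.11), Slc1a5 (-0.64 ± 0.15) and Slc7a5 (-0.63 ± 0.13), with limma adjusted p between 0.0064 and 0.024. The brighter Slc38a1 probe set did not pass (-0.93 ± 0.31, limma, adjusted p = 0.0709), while its second one did (-0.54 ± 0.09, adjusted p = 0.0103). In double-KO against Jmjd1b-KO, 6 fell and 0 rose, where 50.1% of all measured probe sets passed, 21.8% lower and 28.3% higher. Slc7a1 fell by 3.30 ± 0.27, Slc7a3 fell by 1.94 ± 0.32, Slc7a5 fell by 1.27 ± 0.13 and Slc3a2 fell by 1.12 ± 0.11. The smaller of these falls were those of Slc1a5 (-0.99 ± 0.15) and Slc1a4 (-0.42 ± 0.11). Second probe sets differed from the brighter ones here too. That of Slc1a5 did not pass (-0.21 ± 0.10, limma, adjusted p = 0.132), and that of Slc38a1 passed (-0.60 ± 0.09, adjusted p = 0.00333) where the brighter one did not (-0.28 ± 0.31, adjusted p = 0.498). In Jmjd1a-KO against Jmjd1b-KO, 3 fell and 0 rose, where 27.9% of all measured probe sets passed, 12.7% lower and 15.1% higher. They were Slc7a1 (-1.43 ± 0.27), Slc7a5 (-0.65 ± 0.13) and Slc3a2 (-0.45 ± 0.11). The second Slc1a4 probe set also passed (-0.49 ± 0.14, limma, adjusted p = 0.0466), and the brighter one did not (-0.23 ± 0.11, adjusted p = 0.183).

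The order of the 4 genotypes depended on the gene. For Slc7a5 it ran Jmjd1b-KO, WT, Jmjd1a-KO, double-KO from high to low, and only WT and Jmjd1a-KO among the neighbours did not differ by the test. Slc3a2 had the same order, but only Jmjd1a-KO and double-KO differed as neighbours. For Slc7a1 it ran WT, Jmjd1b-KO, Jmjd1a-KO, double-KO, and WT and Jmjd1b-KO did not differ by the test (-0.23 ± 0.27, limma, adjusted p = 0.552). For Slc7a3 and the brighter Slc1a5 probe set it ran Jmjd1b-KO, Jmjd1a-KO, WT, double-KO, and the first 3 did not differ between neighbours. For Slc7a3 the step between WT and double-KO passed, and for this Slc1a5 probe set it did not, although Jmjd1b-KO and WT differed. The second Slc1a5 probe set ran otherwise, with averages of 6.77 in double-KO, 7.17 in Jmjd1a-KO and 6.98 in Jmjd1b-KO, against 7.10 in WT. In their brightest probe sets, Slc38a1 ran WT, Jmjd1a-KO, Jmjd1b-KO, double-KO, Slc1a4 ran Jmjd1b-KO, WT, Jmjd1a-KO, double-KO, and Slc6a9 ran Jmjd1a-KO, WT, Jmjd1b-KO, double-KO, and no neighbours of these 3 differed by the test. The second Slc38a1 probe set had another order, with averages of 8.44 in double-KO, 8.98 in Jmjd1a-KO and 9.04 in Jmjd1b-KO, against 9.33 in WT, and double-KO and Jmjd1a-KO differed as neighbours.

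Whether Jmjd1b loss acted alike with and without Jmjd1a was tested as an interaction, double-KO minus Jmjd1a-KO, less Jmjd1b-KO minus WT. It was below 0 and past the threshold for 5 of the 8 transporters, where 24.9% of all measured probe sets passed, 11% below 0 and 13.9% above. The interaction was -1.17 ± 0.19 for Slc7a5 (limma, adjusted p = 0.0113), where Jmjd1b loss gave -0.63 without Jmjd1a, against 0.54 with it. It was -1.01 ± 0.15 for Slc3a2 (adjusted p = 0.01), with -0.66 without Jmjd1a, against 0.34 with it. It was -1.23 ± 0.21 for the brighter Slc1a5 probe set (adjusted p = 0.0122), which had -0.64 without Jmjd1a, against 0.58 with it. The second Slc1a5 probe set had -0.40 without Jmjd1a, against -0.12 with it, and its interaction did not pass (-0.27 ± 0.14, limma, adjusted p = 0.199). The cationic transporters had -2.11 ± 0.46 for Slc7a3 (adjusted p = 0.0246) and -1.64 ± 0.38 for Slc7a1 (adjusted p = 0.0286). The brighter Slc38a1 probe set stood apart, with -0.93 without Jmjd1a, against -0.90 with it. Its interaction was -0.04 ± 0.44 (limma, adjusted p = 0.965), with a wide 95% interval from -1.11 to 1.04. The second Slc38a1 probe set had -0.54 without Jmjd1a, against -0.29 with it, and an interaction of -0.24 ± 0.13 (limma, adjusted p = 0.204).

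**Figure D3:**
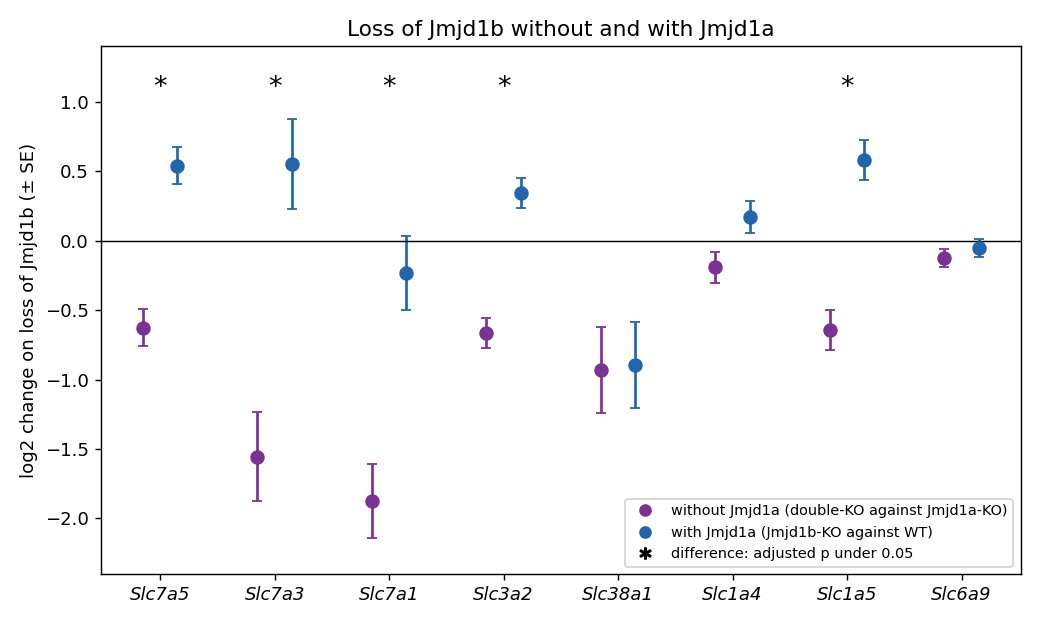
Log2 change on loss of Jmjd1b (vertical axis, ± SE of the limma fit, 2 arrays per group) without Jmjd1a (double-KO against Jmjd1a-KO, left point of each gene) and with it (Jmjd1b-KO against WT, right point); stars mark an interaction with an adjusted p under 0.05. For Slc7a5 the points are -0.63 and 0.54, on opposite sides of 0, while for the brighter Slc38a1 probe set they are -0.93 and -0.90.

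**Figure D4:**
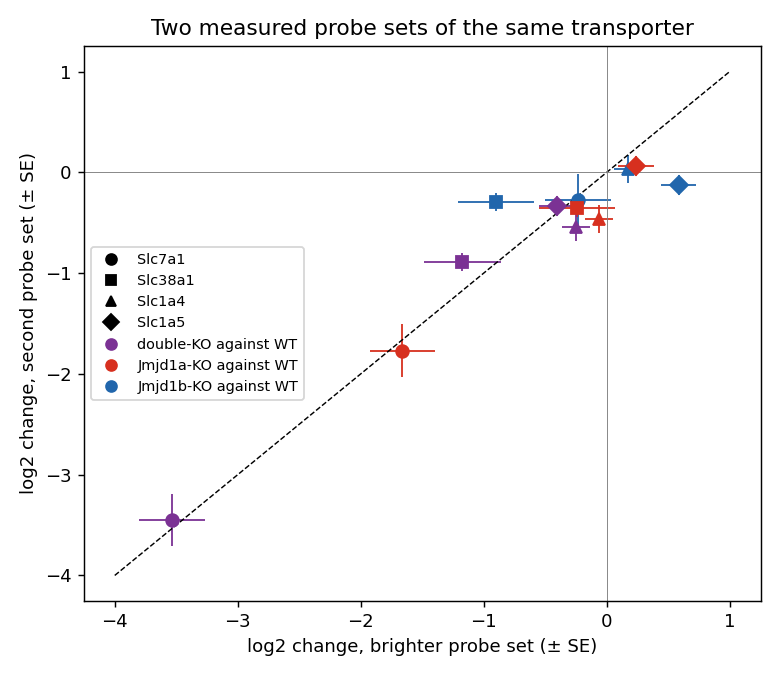
Log2 change against WT (± SE) of the second measured probe set (vertical axis) by that of the brighter one (horizontal axis) for the 4 transporters with 2 measured probe sets; the dashed line marks equal changes. The Slc7a1 points lie close to the line, at -3.54 and -3.45 in double-KO, and the Slc1a5 point of Jmjd1b-KO lies off it, at 0.58 and -0.12.

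Slc7a11 and Slc38a2 gave no information on genotype. The Slc7a11 probe sets stood at 6.49 and 5.99 in every array. The 3 probe sets of Slc38a2, the importer SNAT2, stood at 12.003, 8.70 and 6.88 in every array, with a span of at most 4.4e-07. No transporter lay near the limit of 0.01. The nearest above it was Slc6a9, whose measured probe set spanned 0.165, and the nearest below it was the brightest Slc38a2 probe set. Bright and dim probe sets were flat alike, and a flat value gives no difference between genotypes.

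Because several transporters were lower together, their promoters were read for the letters that ATF4 dimers are known to bind, TGATGNAA (core of the C/EBP-ATF response element), and for TGACNNNGC (core of the antioxidant response element, bound by NRF2). The RefSeq windows of GRCm38.p6, 250 bases before to 50 bases after each start, held 6 of the 10 transporters in 9 windows: Slc7a11, Slc7a1, Slc3a2, Slc38a2, Slc1a4 and Slc6a9. Both strands were searched, and no match of one motif overlapped one of the other. TGATGNAA occurred in 3.97% of 32851 windows and TGACNNNGC in 12.4%. The stretches below run 5′ to 3′ on the strand of the gene, from 80 bases before the start to 8 after it, with matches in capitals. Slc7a11 (chr3:50443606-50443693, minus strand) is shown for its pair of facing TGATGNAA matches, Slc1a4 (chr11:20332706-20332793, minus strand) for a match across the start, and Slc7a1 (chr5:148399897-148399984, minus strand, the first of its 2 windows) and Slc3a2 (chr19:8713890-8713977, minus strand) because their signals fell.
Slc7a11: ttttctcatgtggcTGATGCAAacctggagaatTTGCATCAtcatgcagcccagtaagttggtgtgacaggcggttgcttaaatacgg
Slc1a4: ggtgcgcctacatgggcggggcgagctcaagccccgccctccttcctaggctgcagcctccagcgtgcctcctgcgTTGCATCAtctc
Slc7a1: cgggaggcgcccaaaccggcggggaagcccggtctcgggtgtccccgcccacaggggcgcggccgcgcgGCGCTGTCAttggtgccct
Slc3a2: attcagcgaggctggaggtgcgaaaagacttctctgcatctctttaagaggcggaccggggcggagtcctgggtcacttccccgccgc

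Slc7a11 had a TGATGNAA match on the forward strand at -66 to -59 and another on the reverse strand at -47 to -40, counted from the start. Slc1a4 had a reverse match whose first base lies at -4. The Slc7a1 match was to TGACNNNGC on the reverse strand, at -11 to -3, and the Slc3a2 window held neither motif. The second window of Slc7a1 held none either, Slc38a2 held 1 TGACNNNGC match, and so did 2 of the 3 Slc6a9 windows. A match is a description of the letters in these windows, and the array does not show which start was used.

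Other amino acid transporters moved in both directions. Of 45 listed, 43 were on the array and 10 were measured, of which double-KO had 4 higher and 4 lower than WT, where 27% of all measured probe sets were higher and 19.6% lower. Slc6a14, a transporter of neutral and cationic amino acids, rose by 2.01 ± 0.26 (limma, adjusted p = 0.00223) and averaged 7.68 in double-KO, against 5.67 in WT, which is below the lower quartile of the arrays. The taurine transporter Slc6a6 rose by 0.66 ± 0.09 (adjusted p = 0.00227), and Slc38a4, a carrier of neutral amino acids, rose by 0.50 ± 0.15 (adjusted p = 0.0375). Slc7a7, which pairs with the same heavy chain Slc3a2 and exports cationic amino acids, fell by 1.07 ± 0.09 (adjusted p = 0.000717), with averages of 8.69 in double-KO, 9.85 in Jmjd1a-KO and 10.07 in Jmjd1b-KO, against 9.76 in WT. Slc43a1, a carrier of large neutral amino acids, rose by 0.55 ± 0.08 in Jmjd1b-KO against WT (adjusted p = 0.0105). The interaction passed for Slc7a7 (-1.47 ± 0.13) and Slc43a1 (-1.04 ± 0.11).

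Genes of the amino acid and stress response were lower beside the transporters. Of 18 listed, 14 were measured, and 10 fell and 0 rose in double-KO against WT, with a median change of -0.80, where 19.6% of all measured probe sets were lower. Atf4 itself averaged 10.81 in double-KO, 11.80 in Jmjd1a-KO and 12.24 in Jmjd1b-KO, against 12.16 in WT, and fell by 1.35 ± 0.17 (limma, adjusted p = 0.00208). Trib3, a feedback inhibitor of ATF4, fell by 1.25 ± 0.17, and Chac1, which degrades glutathione, fell by 3.25 ± 0.37. Asns, the asparagine synthetase, did not pass (-0.62 ± 0.34, limma, adjusted p = 0.185), nor did Ddit3 (-0.24 ± 0.31, adjusted p = 0.557). Nupr1 fell by 3.30 ± 0.34 to 5.89 in double-KO, below the lower quartile of the arrays. In Jmjd1b-KO against WT, Nupr1 rose by 1.86 ± 0.34, the 1 of the 14 that passed there. In Jmjd1a-KO against WT, 2 of the 14 fell and 0 rose, where 7.88% of all measured probe sets were lower. They were Atf3 (-0.65 ± 0.09) and Trib3 (-0.74 ± 0.17). This list was drawn up with earlier results of these data known and is no independent evidence of a direction.

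Marker lists of several cell types were read beside the transporters, and their counts in double-KO against WT stand against 27% of all measured probe sets higher and 19.6% lower. All 10 pluripotency markers were measured. Against WT, 4 of them rose in double-KO and 0 fell, where 46.6% of all measured probe sets passed in either direction. Their mean log2 values were 11.38 and 12.08 in double-KO, against 11.57 and 11.56 in WT. Of 14 fibroblast markers 10 were measured, and 7 fell and 0 rose in double-KO. Their summed linear signal was 7819 and 5142 in double-KO, 4797 and 4112 in Jmjd1a-KO, 3941 and 3844 in Jmjd1b-KO, and 11203 and 13090 in WT, so WT stood highest. Lum, Dcn and Pdgfra of this list were flat, and a flat value gives no difference between genotypes. Flat in the other lists were Cdx2, Elf5, Gata3 and Hand1 (trophoblast), Gata4, Foxa2, Sox7 and Afp (endoderm) and Zic1 (neural). Of 10 trophoblast markers 6 were measured and 5 rose in double-KO, with sums of 7480 and 7385 in double-KO, 2681 and 2573 in Jmjd1a-KO, 2614 and 2778 in Jmjd1b-KO, and 1087 and 1247 in WT. These sums weigh the brightest gene most, Tfap2c, which averaged 12.15 in double-KO, 10.74 in Jmjd1a-KO and 9.66 in Jmjd1b-KO, against 8.26 in WT. In Jmjd1a-KO against WT, 2 of the 6 rose (10.1% of all measured probe sets), with a median change of -0.05 over the 6. In Jmjd1b-KO against WT, all 6 rose (12.3% of all measured probe sets), with a median change of 1.08. Of 10 endoderm markers 6 were measured and 5 rose in double-KO, with sums of 2342 and 1599 in double-KO, 1386 and 1117 in Jmjd1a-KO, 558 and 545 in Jmjd1b-KO, and 850 and 972 in WT. Of 8 neural markers 7 were measured, 1 of them higher and 3 lower in double-KO. Their sums were 1644 and 1410 in double-KO, 1791 and 3889 in Jmjd1a-KO, 1467 and 1385 in Jmjd1b-KO, and 4066 and 4317 in WT. The low sums of double-KO were thus also seen in Jmjd1b-KO. The part of all these marker lists in the transporter differences was not tested.

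The number of arrays limits the precision, since p-values rest on 4 residual degrees of freedom (5.89 with the prior of the fit) and a spread shared by all groups. The Slc7a1 fall in double-KO against WT passed under all 19 alternatives run, with adjusted p between 0.000174 and 0.0127 in limma. Leaving out single arrays changed several counts. In double-KO against WT the count of 5 became 3 when either WT array was left out, while the calls of Slc7a5, Slc7a1 and Slc3a2 were kept without each array in turn. In Jmjd1b-KO against WT the count of 2 became 0 without either Jmjd1b-KO array or either WT array, and 4 without either double-KO array. The Slc7a1 call in Jmjd1a-KO against WT was lost without either WT array. In double-KO against Jmjd1a-KO the count of 5 became 3 without Jmjd1a-KO replicate 2 (Slc7a5 and Slc7a3 were lost), and the Slc1a5 call there was lost without replicate 1 of double-KO or of Jmjd1a-KO. The Slc1a4 call in double-KO against Jmjd1b-KO was lost without double-KO replicate 1 or either Jmjd1b-KO array. In Jmjd1a-KO against Jmjd1b-KO the count of 3 became 0 without either Jmjd1b-KO array. The interaction count of 5 became 0 without Jmjd1b-KO replicate 2, 2 without WT replicate 2, and 3 without replicate 1 of Jmjd1b-KO or of WT. The interaction of Slc7a1 was also lost without double-KO replicate 1, and that of Slc3a2 and Slc7a5 was lost only without Jmjd1b-KO replicate 2 among the single arrays.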

How the data were processed

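The deposited table holds log2 values of 45101 probe sets on 8 arrays. The authors' processing is known only from the submitters' processing notes, which name R 2.7.2. No source used here states how background, normalization or summarization were handled, and the log2 unit was read from the values. Of all probe sets 11472 (25.4%) spanned at least 0.01, not counting 64 control probe sets, and the rest were flat. Array medians lay between 6.80 and 6.81.

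Genes were named through the platform's gene table. The brightest measured probe set (by its mean over 8 arrays) stood for each gene, and calls of other probe sets are given where they differ for the pairwise comparisons. All 11472 measured probe sets were fitted in limma 3.58.1 under R 4.3.3 with a mean for each of 4 groups (lmFit, eBayes, prior degrees of freedom 1.89 and prior variance 0.00685), and p-values were Benjamini-Hochberg adjusted over all of them (threshold 0.05). Values are means of 2 arrays, changes are log2 differences ± SE. Whether replicates came from separate cultures is not given beyond the label biological replicate, so p-values measure only the spread between these arrays.

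All 10 transporters are always named. Of the other lists, at most the 4 genes past the threshold with the largest change per list and comparison are named, and Atf4, Ddit3, Trib3, Asns and Nfe2l2 always. The members and lists were chosen with earlier results of these data known. Replicates with the same number deviated together with correlations between -0.04 and 0.24, so they were not paired. Alternatives were the flat probe sets, a mean over the probe sets of a gene, quantile normalization, centring, a filter on dim probe sets, a robust fit with trend, array weights, a replicate block, a fit on the compared groups alone, each array left out and stricter thresholds. The fit was tested on simulated data. Python 3.11.15 and matplotlib 3.10.9 drew the figures.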

Additional observations from a re-analysis of the deposited data

Results flagged for a closer look

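The effect of Jmjd1b loss differed between cells without and with Jmjd1a for 5 transporters, by the interaction term of the limma fit over 8 arrays. The interaction was -1.17 for Slc7a5 (adjusted p = 0.0113), -2.11 for Slc7a3 (adjusted p = 0.0246), -1.64 for Slc7a1 (adjusted p = 0.0286), -1.01 for Slc3a2 (adjusted p = 0.01) and -1.23 for Slc1a5 (adjusted p = 0.0122). In the brightest probe sets of Slc7a5, Slc7a3, Slc3a2 and Slc1a5 the change was below 0 without Jmjd1a and above 0 with it. For Slc7a1 it was below 0 in both (-1.87 without Jmjd1a and -0.23 with it), as it was for the second Slc1a5 probe set (-0.40 and -0.12). The interactions of the second probe sets were -1.40 for Slc7a1 (limma, adjusted p = 0.0415) and -0.27 for Slc1a5 (adjusted p = 0.199).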

How the results depend on the processing

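No transporter change that passed the threshold reversed under any alternative run, but the counts of transporters past it, of 8 measured, depended on the fit. With flat probe sets included, the counts against WT were 2 in double-KO, 0 in Jmjd1a-KO and 0 in Jmjd1b-KO, and they were 0 in double-KO against Jmjd1a-KO, 0 in Jmjd1a-KO against Jmjd1b-KO and 0 in the interaction. At an adjusted p under 0.01 they were 3, 0 and 0 in the same order against WT, then 2, 0 and 0. Requiring a log2 change of at least 1 gave 3 in double-KO and 0 in Jmjd1b-KO against WT, 2 in double-KO against Jmjd1a-KO and 1 in Jmjd1a-KO against Jmjd1b-KO. Fits on the compared groups alone gave 0 in Jmjd1a-KO and 5 in Jmjd1b-KO against WT, and 0 in double-KO against Jmjd1a-KO. Array weights gave 4 in Jmjd1b-KO against WT and 3 in double-KO against Jmjd1a-KO. The replicate block gave 1 in Jmjd1b-KO against WT and moved no other of these counts by over 1.5 times, and the labels do not pair the arrays. Leaving out each array in turn gave counts of 3 to 5 in double-KO, 0 to 1 in Jmjd1a-KO and 0 to 4 in Jmjd1b-KO against WT, 3 to 5 in double-KO against Jmjd1a-KO, 0 to 4 in Jmjd1a-KO against Jmjd1b-KO and 0 to 5 in the interaction. For double-KO against Jmjd1b-KO (6) no alternative moved the count by over 1.5 times.

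Changes that reversed had not passed. Centring the arrays turned Slc6a9 in Jmjd1a-KO against WT to -0.013. Leaving out single arrays gave, against WT, -0.61 to 0.13 for Slc38a1, -0.18 to 0.059 for Slc1a4 and -0.033 to 0.061 for Slc6a9 in Jmjd1a-KO, and -0.11 to 0.0077 for Slc6a9 in Jmjd1b-KO. It gave -0.65 to 0.10 for Slc38a1 and -0.12 to 0.0024 for Slc6a9 in double-KO against Jmjd1b-KO, and -0.41 to 0.34 for the interaction of Slc38a1. The cause of these shifts was not tested, beyond fewer arrays and stricter thresholds. Dim probe sets are limited by signal over background, which was not analysed here.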

Other observations

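Genes of glutathione synthesis and of the antioxidant response, fed by the cystine that Slc7a11 imports, moved in both directions. Of 16 listed, 10 were measured, of which double-KO had 1 higher and 3 lower than WT, a share near the 46.6% of all measured probe sets that passed in this comparison. Cth, which makes cysteine from cystathionine, averaged 8.06 in double-KO, 8.94 in Jmjd1a-KO and 11.45 in Jmjd1b-KO, against 9.20 in WT. It fell by 1.14 ± 0.22 in double-KO (limma, adjusted p = 0.00856) and rose by 2.25 ± 0.22 in Jmjd1b-KO (adjusted p = 0.00474), with an interaction of -3.14 ± 0.31 (adjusted p = 0.00386). Hmox1, the heme oxygenase, fell by 1.66 ± 0.12 in double-KO and rose by 1.04 ± 0.12 in Jmjd1b-KO. Gpx4, the glutathione peroxidase of lipid peroxides, rose by 1.13 ± 0.14 in double-KO. Nfe2l2, which encodes NRF2, had a change of 0.23 in double-KO and did not pass (limma, adjusted p = 0.0875).

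Of 23 listed genes of amino acid sensing by mTORC1, the kinase complex that couples amino acid supply to growth, 13 were measured, of which double-KO had 5 higher and 1 lower than WT, again a share near that of all measured probe sets. Sesn3, a member of the sestrin family of mTORC1 inhibitors, averaged 9.77 in double-KO, 9.10 in Jmjd1a-KO and 7.53 in Jmjd1b-KO, against 8.19 in WT. It rose by 1.58 ± 0.13 in double-KO (limma, adjusted p = 0.000638) and fell by 0.65 ± 0.13 in Jmjd1b-KO (adjusted p = 0.0233). Lamtor4, a subunit of the lysosomal Ragulator scaffold, fell by 0.89 ± 0.17 in double-KO (adjusted p = 0.00865).

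Among 2772 probe sets of other genes with a span of at least 1, those whose values over the 8 arrays were most like Slc3a2 belonged to Gpt2 (Pearson r = 0.996), Rab33a (r = 0.996) and Aplp1 (r = 0.994). Gpt2, the mitochondrial alanine aminotransferase, averaged 8.24 in double-KO, 9.72 in Jmjd1a-KO and 10.76 in Jmjd1b-KO, against 9.95 in WT. The arrays share their genotype groups, and the values are a description. No such search was possible for Slc7a11, whose probe sets were flat.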
